A study of Mus musculus with 8 samples.

Results

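The CXC chemokines are small secreted proteins that direct the movement of white blood cells and are named for a pair of cysteines separated by a single residue. Cxcl1, Cxcl2, Cxcl3, Cxcl9, Cxcl10, Cxcl11 and Cxcl16 were chosen by name as ligands of this family, and all 7 were found among the 46078 genes counted. Cxcl1, Cxcl2 and Cxcl3 bind the receptor Cxcr2 and attract neutrophils, and their genes are known targets of NF-kB, a transcription factor activated through the LPS receptor TLR4. Cxcl9, Cxcl10 and Cxcl11 bind Cxcr3 and attract activated T cells and natural killer cells, and their genes are known for their induction by interferons. Cxcl16 is made as a transmembrane protein whose shed form attracts cells that carry Cxcr6.

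BV-2 cells, a mouse microglial line that has been immortalized, were kept for 4 hours without serum and then divided into 4 groups, with 2 libraries of polyadenylated RNA sequenced per group. The control group received no addition, and the LPS group was exposed to lipopolysaccharide (LPS), an outer membrane component of Gram-negative bacteria, at 100 ng/mL for 20 hours. In the AGE+LPS group, aged garlic extract (AGE) at 0.5% (v/v) was given 1 hour before the same LPS exposure. In the FruArg+LPS group, 3 mM FruArg, the Amadori product that glucose forms with arginine and a component of the extract, was given at that time instead. The labels give lane 3 for every replicate 1 and lane 6 for every replicate 2, so that lane and replicate number cannot be told apart. The column names of every replicate 2 also carry a further tag that those of replicate 1 lack. What that tag marks is not given, and it cannot be told apart from the lane. The design text calls the replicates biological, but whether they came from separate cultures is not given in the sources used here, and the p-values measure the spread between these libraries. The libraries held 2707500 and 8995052 counts in total in the control, 8720784 and 12069807 with LPS, 6795464 and 6669072 with AGE+LPS, and 4692715 and 5822113 with FruArg+LPS (replicates 1 and 2 in this order throughout). Levels are given as CPM, the count of a gene divided by the library total and brought to a common scale, after scaling by the trimmed mean of M values (TMM), and different genes are ordered by their CPM per kb of exon. A gene was taken as at the floor in a library with 3 counts or fewer, which was between 0.249 and 1.11 CPM before the TMM scaling. The reads carry no molecular identifiers, so these floors cover counting error only, and a lower level from fewer expressing cells cannot be told apart from less RNA per cell.

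The cells carried the RNA of macrophages. All 10 microglia and macrophage markers listed were matched, with summed levels between 3093 and 4521 CPM, and Adgre1 was the most abundant per kb in every library with LPS. Of the markers particular to brain microglia, Tmem119 had at most 6 counts in any library and P2ry12 reached at most 9.27 CPM. Of 6 neutrophil markers, Ly6g, S100a9 and Elane had 0 counts in all 8 libraries. The summed level of the 6 was 0 and 0.374 CPM in the control, 1.25 and 1.19 with LPS, 3.71 and 3.03 with AGE+LPS, and 3.21 and 3.61 with FruArg+LPS. Camp was the most abundant per kb in the libraries with LPS (7 to 23 counts), and S100a8 in the control library with any (3 counts). Cd3e and Cd8a of T cells, Aqp4 and Aldh1l1 of astrocytes, Cldn5 of endothelial cells, and Rbfox3, Snap25 and Syt1 of neurons were also at 0 counts in all libraries, and each of the 3 fibroblast markers had at most 1 count. Other markers of these lists were detected, with Slc1a2 at up to 28 counts, Pecam1 15, Cd4 13, Trac 6, Tubb3 6, Cd3d 5, Cdh5 4 and Gfap 1.

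Cxcl2 and Cxcl10 were the most abundant of the 7 members, and LPS raised both. Cxcl2, a major neutrophil attractant of mouse macrophages, was at 1.87 and 1.68 CPM in the control libraries, 359 and 494 with LPS, 1286 and 1450 with AGE+LPS, and 1447 and 1604 with FruArg+LPS. Cxcl10 was at 6.53 and 7.77 CPM in the control libraries, 519 and 809 with LPS, 246 and 183 with AGE+LPS, and 161 and 284 with FruArg+LPS. For both genes every LPS library lay above every control library, but the co-treated libraries lay above the LPS libraries for Cxcl2 and below them for Cxcl10. Group means of Cxcl2 were 1.78 ± 0.129, 427 ± 95.5, 1368 ± 116 and 1526 ± 111 CPM, and those of Cxcl10 were 7.15 ± 0.874, 664 ± 205, 214 ± 44.2 and 222 ± 86.6 CPM, in the order control, LPS, AGE+LPS and FruArg+LPS (SD, n = 2 each). Per kb of exon, the other 5 members together took at most 0.742% of the sum of the 7 in any library. Cxcl2 took 23.7% and 19% of that sum in the control, 42.7% and 39.7% with LPS, 84.7% and 88.9% with AGE+LPS, and 90.2% and 85.5% with FruArg+LPS.

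Cxcl1 and Cxcl3, the other neutrophil attractants, were far less abundant per kb (at most 5.28 CPM per kb in any library) and had 0 counts in both control libraries. Cxcl1 was at 1.62 and 2.39 CPM with LPS (13 and 26 counts), 0.571 and 0.455 with AGE+LPS (4 and 3 counts), and 3.44 and 4.37 with FruArg+LPS (15 and 23 counts). Both AGE+LPS libraries thus lay below both LPS libraries, and both FruArg+LPS libraries above them. Cxcl3 was at 1.12 and 2.57 CPM with LPS (9 and 28 counts), 9.13 and 18.5 with AGE+LPS (64 and 122 counts), and 8.94 and 10.6 with FruArg+LPS (39 and 56 counts). Every co-treated library lay above both LPS libraries for Cxcl3, and the AGE+LPS and FruArg+LPS libraries overlapped.

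Cxcl11 and Cxcl9, the other Cxcr3 ligands, were also at 0 counts in the control libraries. Cxcl11 was at 1.62 and 3.4 CPM with LPS (13 and 37 counts), 1.85 and 0.455 with AGE+LPS (13 and 3 counts), and 0 and 1.52 with FruArg+LPS (0 and 8 counts). The AGE+LPS libraries overlapped the LPS libraries, and the FruArg+LPS libraries lay below them. Cxcl9 had 6 counts in each LPS library (0.75 and 0.551 CPM), 2 in each AGE+LPS library and 0 and 1 in the FruArg+LPS libraries, so that it stood above the floor with LPS alone and in no other group. Cxcl16 had 0 and 1 counts in the control libraries, 6 and 17 with LPS (0.75 and 1.56 CPM), 4 and 2 with AGE+LPS, and 2 and 3 with FruArg+LPS, and was highest in the LPS libraries.

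**Figure D1:**
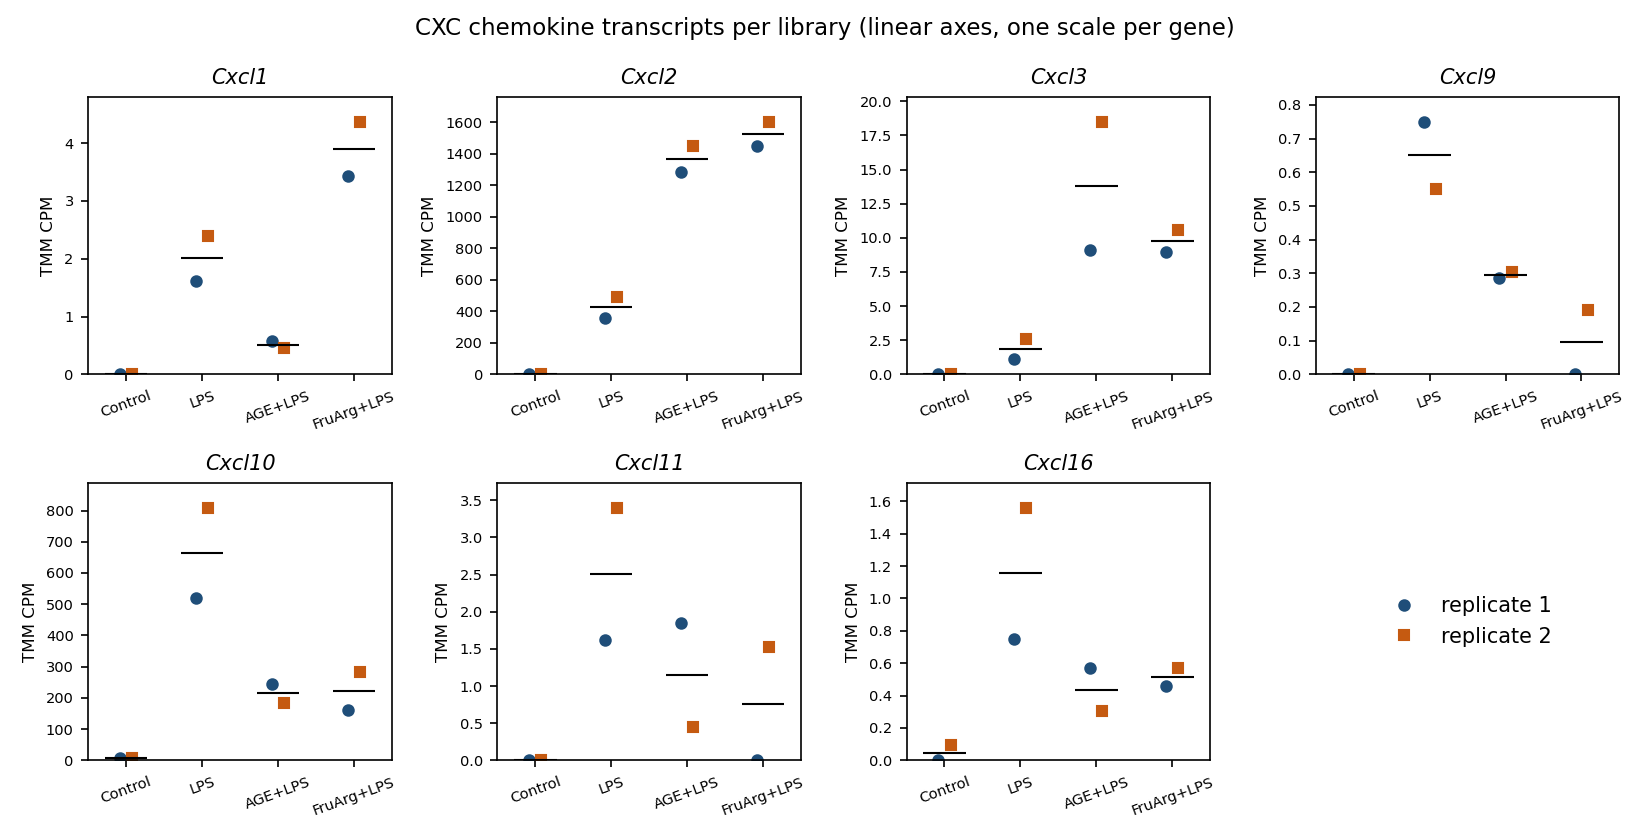
TMM-scaled CPM of the 7 CXC chemokines in each library (points) and as group means (black lines), with 1 panel and 1 linear scale per gene, for the 4 groups of 2 libraries (circles replicate 1, squares replicate 2). Cxcl2 lies between 1286 and 1604 CPM in the co-treated libraries against 359 and 494 with LPS, and Cxcl10 between 161 and 284 against 519 and 809.

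Per kb of exon, Cxcl10 stood above Cxcl2 in the control, at 3.18 ± 0.388 against 0.859 ± 0.0622 CPM per kb. With LPS the means were 295 ± 91 for Cxcl10 and 206 ± 46.2 for Cxcl2 with overlapping libraries, and the order was Cxcl10, Cxcl2, Cxcl1 (1.07), Cxcl11 (0.662), Cxcl3 (0.529), Cxcl16 (0.383) and Cxcl9 (0.216 CPM per kb). Among the last 5 of these, each overlapped its neighbour in the order. With AGE+LPS the levels were 662 ± 56 for Cxcl2 and 95.2 ± 19.6 for Cxcl10, followed by Cxcl3 (3.95), Cxcl11 (0.304), Cxcl1 (0.273), Cxcl16 (0.145) and Cxcl9 (0.0975). With FruArg+LPS they were 738 ± 53.7 for Cxcl2 and 98.8 ± 38.5 for Cxcl10, then Cxcl3 (2.8), Cxcl1 (2.08), Cxcl11 (0.2), Cxcl16 (0.17) and Cxcl9 (0.0315 CPM per kb). Cxcl2 and Cxcl10 did not overlap in either co-treated group, whereas Cxcl11 overlapped Cxcl1 and Cxcl16 with AGE+LPS, and Cxcl16 and Cxcl9 with FruArg+LPS. Cxcl16 and Cxcl9 overlapped with AGE+LPS too, so the order of these low members is not firm.

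The first comparison, LPS with the control, asks which of these genes respond to LPS. Differentially expressed genes (DEGs) were those whose log2 fold change reached 1 in either direction with an adjusted p below 0.05 in the quasi-likelihood test of edgeR, adjusted by the Benjamini-Hochberg method over all genes tested. Only genes that passed the edgeR filter on low counts were tested, which were 4 of the 7 members here, and all 4 were called up, where 11.5% of the 12888 genes tested were called up and 11.1% down. Cxcl1 and Cxcl11 could pass that filter only through the LPS libraries, so their share in this count is no support. Cxcl2 rose 240-fold (log2 fold change 7.97, SE 0.33) with an edgeR adjusted p of 2.7e-06, and Cxcl10 rose 92.9-fold (6.54, SE 0.33) with 3.7e-06. For genes with 0 counts in the control, the group mean was set against the mean floor of the control libraries. By that measure Cxcl1 was at least 3.31-fold higher (edgeR adjusted p = 0.0038) and Cxcl11 at least 4.14-fold higher (0.0037). The alternatives gave adjusted p from 1.3e-05 to 0.0054 for Cxcl1 and from 5.1e-07 to 0.029 for Cxcl11, and without LPS replicate 2 both genes failed the filter, leaving 2 members called. Cxcl3 (at least 3.05-fold), Cxcl9 (1.07-fold) and Cxcl16 did not pass the filter and were not tested. Cxcl9 with LPS (0.75 and 0.551 CPM) lay below the floor of Control replicate 1 (0.933 CPM after TMM scaling), so its fold is no firm bound. Of the 9 alternatives with all libraries, 3 tested Cxcl3 and called it (adjusted p 2.7e-05 to 0.007), and 1, the filter of at least 1 count, tested Cxcl16 and called it (0.013) and Cxcl9 and did not (0.057). Some fits that left out a library also tested Cxcl3 (6.81 to 7.45) and Cxcl16 (3.52 to 6.14). Both genes were at the floor in the control, so all tests of them rest on the LPS libraries where they are high. Their calls are therefore no support. The same libraries show a shift of all genes when scaled by library size alone, with a median log2 fold change of -0.40 in place of 0.02, and then 932 genes were called up and 2666 down in place of 1485 and 1433. The 4 members were called up under that scaling too.

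The next comparison, AGE+LPS with LPS, asks what AGE changes in LPS-exposed cells. Cxcl2 rose further, by 3.21-fold (log2 fold change 1.68, SE 0.25, 95% interval 1.09 to 2.27, edgeR adjusted p = 0.046), and was higher in 2 of 2 libraries. That call was lost with another kind of size factor (RLE), and adjusted p ranged from 2.5e-29 to 0.053 over 9 alternatives. Of the 5 members tested, Cxcl2 was the 1 called up and 0 were called down, where 0.292% of the 12317 genes tested were called up and 0.503% down. With the replicate block, a fit that compares the groups within each lane, 2 members were called up and 2 down, against 4.91% and 4.82% of all genes. Of these 4, Cxcl3 and Cxcl1 could pass the filter only through the group where they are high, so their share in this count is no support. Under this replicate block Cxcl2 (1.70, edgeR adjusted p = 2.5e-29) and Cxcl3 (2.89, 1.9e-15) rose, and Cxcl10 (-1.61, 4.1e-24) and Cxcl1 (-1.93, 0.0085) fell. Cxcl1 was called in this 1 of the 8 alternatives that tested it, and not with the block and all 4 groups in one fit. In the main fit, which has no block, the values were 2.85 (SE 0.53) for Cxcl3, a 7.47-fold difference of means with an edgeR adjusted p of 0.061, and -1.63 (SE 0.29) for Cxcl10, 3.1-fold lower with 0.058. Over the alternatives, adjusted p ranged from 1.9e-15 to 0.066 for Cxcl3 and from 4.1e-24 to 0.065 for Cxcl10. With a library left out, Cxcl3 stood at 2.27 to 3.59 and Cxcl10 at -1.91 to -1.28. Such a fit leaves a group with a single library, which has no spread of its own. Cxcl1 was 3.92-fold lower (-1.95, SE 0.58, edgeR adjusted p = 0.15, from 0.0085 to 0.4 over the alternatives) and Cxcl11 stood at -1.12 (SE 0.72, 0.48). AGE+LPS replicate 2 was at the floor for both genes (3 counts each), so these values are not exact. The 98 DEGs of this comparison became 646 and 441 when replicate 1 or 2 of LPS was left out, and 349 and 619 when replicate 1 or 2 of AGE+LPS was. Scaling by library size shifted the median of all genes to 0.15, and the signs of these 5 values were kept.

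FruArg+LPS was compared with the same LPS libraries, so that the values of both co-treatments share them. The levels moved as with AGE for Cxcl2 (1.84, SE 0.27, 3.58-fold higher), Cxcl3 (2.37, SE 0.55, 5.3-fold higher) and Cxcl10 (-1.57, SE 0.34, 2.99-fold lower), in 2 of 2 libraries each. None of them passed, with edgeR adjusted p of 0.16, 0.21 and 0.2, and 0 of 12071 genes (0%) were called in the whole comparison. At an unadjusted p under 0.05 stood 1543 genes and 3 of the 5 members tested, and DESeq2 called 202 genes and 3 members. With the replicate block Cxcl2 (1.86, edgeR adjusted p = 4.6e-11) and Cxcl3 (2.44, 3.3e-04) rose and Cxcl10 (-1.59, 5.5e-10) fell, which is 2 members up and 1 down, against 2.87% and 3.48% of all genes. Cxcl3 could pass the filter only through the FruArg+LPS libraries, so its share in this count is no support. Leaving out LPS replicate 1 gave 198 DEGs, LPS replicate 2 gave 5, FruArg+LPS replicate 1 gave 57 and FruArg+LPS replicate 2 gave 1549. The highest adjusted p over the alternatives was 0.17 for Cxcl2, 0.22 for Cxcl3 and 0.21 for Cxcl10. With a library left out, Cxcl2 stood at 1.62 to 2.09, Cxcl3 at 1.91 to 3.10 and Cxcl10 at -2.04 to -1.22. Without FruArg+LPS replicate 2, Cxcl11 was at -7.31, a value set by the single library with 0 counts that remained. All libraries gave -1.64 for Cxcl11 (SE 1.05, edgeR adjusted p = 0.51). Cxcl1 was 1.95-fold higher than with LPS alone (0.95, SE 0.61, edgeR adjusted p = 0.51, 0.36 with the replicate block).

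AGE and FruArg were then compared with each other, the extract against a compound that it contains, each at its own dose. Of the 4 members tested 0 were called by edgeR, as were 0 of 11915 genes (0%), while 668 genes and 1 member stood at an unadjusted p under 0.05 and DESeq2 called 5 genes and 0 members. That member was Cxcl1, 7.62-fold higher with FruArg+LPS (log2 fold change 2.87, SE 0.78, 95% interval 1.14 to 4.60, edgeR adjusted p = 0.84, from 0.044 to 0.84 over the alternatives). Cxcl1 had 4 and 3 counts with AGE+LPS and could pass the filter only through the FruArg+LPS libraries, so this test is no support. AGE+LPS replicate 2 was at the floor, so the fold is not exact. With the replicate block, where 0.898% of genes were called, Cxcl1 stood at 2.86 with an edgeR adjusted p of 0.074, and the lowest value came from the block with all 4 groups in one fit. There were 51 and 10 DEGs when replicate 1 or 2 of AGE+LPS was left out, and 10 and 233 when replicate 1 or 2 of FruArg+LPS was. The intervals of the difference, FruArg+LPS less AGE+LPS, were -0.39 to 0.69 for Cxcl2 (0.15), -1.45 to 0.46 for Cxcl3 (-0.50) and -0.62 to 0.71 for Cxcl10 (0.044). The interval of Cxcl3 reaches past the DEG threshold of 1, and a p that misses the threshold does not show that extract and compound act alike. The signs of the Cxcl3 and Cxcl10 values turned in some alternatives, to 0.091 for Cxcl3 without AGE+LPS replicate 2 and to -0.42 for Cxcl10 without FruArg+LPS replicate 2.

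Against the control, the members tested in the co-treated groups stayed higher. With AGE+LPS all 3 members tested were called up against the control, where 7.64% of 12449 genes were called up. Cxcl2 was 771-fold higher (9.63, edgeR adjusted p = 1.9e-06), Cxcl10 30-fold higher (4.89, 1.2e-05) and Cxcl3 at least 22.7-fold higher (5.2e-04). With FruArg+LPS all 4 tested were called up, where 9.59% of 12038 genes were. Cxcl2 was 859-fold higher (9.79, edgeR adjusted p = 1.1e-05), Cxcl10 31.1-fold (4.95, 9.5e-05), Cxcl3 at least 16.1-fold (0.0013) and Cxcl1 at least 6.43-fold (0.0074), and Cxcl1 lost its call without Control replicate 2 (7.07). Scaling by library size shifted the medians of all genes to -0.24 and -0.40 in these 2 comparisons, which share the control libraries. Cxcl1 and Cxcl3 had 0 counts in the control and could be tested only where the co-treated libraries were high, so their part in these counts is no support.

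The balance of the 2 classes was read in each library as a log ratio, the mean log2(CPM + 1) of Cxcl1, Cxcl2 and Cxcl3 less that of Cxcl9, Cxcl10 and Cxcl11. It was -0.46 and -0.57 in the control, -0.084 and 0.039 with LPS, 1.50 and 2.29 with AGE+LPS, and 2.87 and 2.29 with FruArg+LPS. All 4 co-treated libraries therefore lay above the control and LPS libraries, and the co-treated groups met at 2.29. The score takes CPM without gene length, so its zero is no point of even levels. From CPM per kb, an alternative chosen after seeing the data, it was -0.35 and -0.43, 0.02 and 0.076, 1.34 and 1.92, and 2.20 and 1.93 in the same order. Group means were -0.52 (SD 0.074), -0.022 (SD 0.087), 1.90 (SD 0.56) and 2.58 (SD 0.41) with n = 2 each, and no test was made of this score. AGE+LPS exceeded LPS by 1.92 (1.58 in lane 3 and 2.25 in lane 6), and FruArg+LPS exceeded LPS by 2.61 (2.96 in lane 3 and 2.25 in lane 6). FruArg+LPS exceeded AGE+LPS by 0.69, but by 1.37 in lane 3 and by -0.00079 in lane 6. Per kb, the ratio of Cxcl2 to Cxcl10 alone was 0.311 and 0.236 in the control, 0.753 and 0.665 with LPS, 5.7 and 8.62 with AGE+LPS, and 9.78 and 6.16 with FruArg+LPS. Cxcl10 was thus the more abundant of the pair in every control and LPS library and Cxcl2 in every co-treated library. The summed neutrophil markers were highest in the co-treated libraries (at most 3.71 CPM), but most of that sum was Camp (2.58 to 3.42 CPM). S100a8 was at 0.19 to 0.458 CPM there, against 0.125 and 0.551 with LPS. Ly6g, S100a9 and Elane were at 0 counts in all libraries, and Mpo in the co-treated ones.

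**Figure D2:**
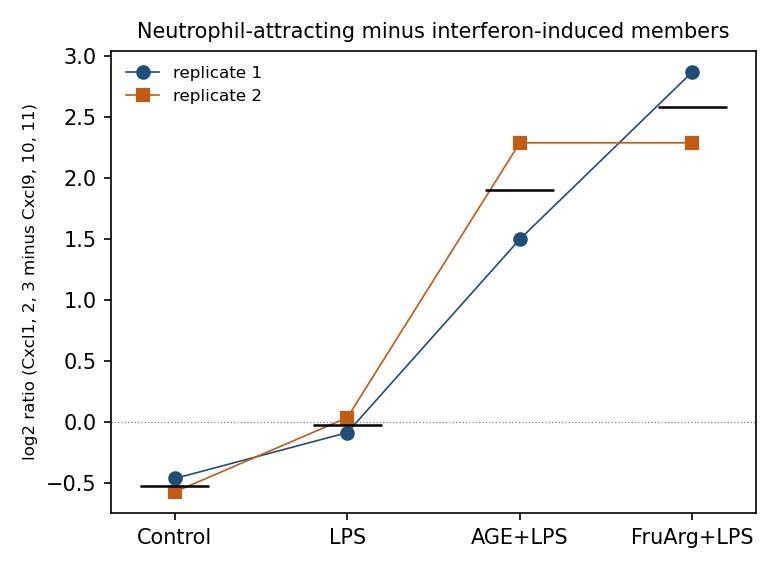
Log ratio of the neutrophil-attracting to the interferon-induced members (log2 scale, y axis) in each library of the 4 groups (circles replicate 1, squares replicate 2, joined across groups by lane) with group means as black lines. The 4 co-treated libraries sit between 1.50 and 2.87, and the LPS and control libraries between -0.57 and 0.039.

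Genes with the most similar pattern were taken as the 3 with the highest Pearson r of log2(CPM + 1) over the 8 libraries, out of 9989 genes with a mean of at least 5 CPM. The value describes these 8 libraries, which differ most by treatment. For Cxcl2 they were Cdc42ep2 (0.998), Rhoq (0.997) and Il1b (0.996), and for Cxcl3 Il1f9 (0.994), Ezr (0.989) and Gpr141 (0.987). Il1b, the cytokine interleukin-1 beta, had means of 1.99, 574, 1666 and 1427 CPM and Il1f9, interleukin-36 gamma, 0, 2.81, 17.6 and 11.4 CPM in the order of the groups above. Both interleukins were highest with AGE+LPS and lowest in the control. For Cxcl10 the genes were Zfp811 (0.994), Jak2 (0.993) and Gbp5 (0.993), and Gbp5, an interferon-inducible GTPase, had means of 0.685, 221, 45.2 and 85.2 CPM with the peak at LPS alone. For Cxcl1 they were Homer3 (0.964), Prr13 (0.959) and Dnase1l1 (0.954), each highest with FruArg+LPS, as was Cxcl1, on whose pattern they were picked. The low counts of Cxcl1, Cxcl9 (Ctf2 0.984, Apmap 0.956 and Gm11977 0.954), Cxcl11 (Gtf2f1 0.971, Gm15832 0.945 and Rrbp1 0.944) and Cxcl16 (Hp1bp3 0.967, 2410004B18Rik 0.955 and E2f5 0.954) make their lists weaker descriptions.

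In the GENCODE M21 annotation of GRCm38, the neutrophil-attracting genes lie together on the plus strand of chromosome 5, within 120 kb. They are Cxcl3 (ENSMUSG00000029379, chr5:90786103-90789600), Cxcl1 (ENSMUSG00000029380, chr5:90891241-90893115) and Cxcl2 (ENSMUSG00000058427, chr5:90903871-90905938). Cxcl9 (ENSMUSG00000029417, chr5:92321347-92328079), Cxcl10 (ENSMUSG00000034855, chr5:92346638-92348889) and Cxcl11 (ENSMUSG00000060183, chr5:92359544-92365485, annotated as a polymorphic pseudogene) lie on the minus strand of the same chromosome within 44.1 kb. Cxcl16 (ENSMUSG00000018920, chr11:70453983-70459984) lies alone on the minus strand of chromosome 11. Within 200 kb of the first cluster lie Pf4 and Mthfd2l, tested and not called in the comparisons with LPS or of LPS with the control, and Cxcl5, Cxcl15 and Ereg, with 0 counts in all libraries. Near the second, LPS lowered Naaa (-1.20, edgeR adjusted p = 0.011). Scarb2 was called with AGE+LPS under the replicate block (edgeR adjusted p = 7.6e-18) but not in the main fit (-1.14, edgeR adjusted p = 0.057). Near Cxcl16, LPS raised Mink1 (1.12, edgeR adjusted p = 0.0072). Whether counting used the strand is not given in the sources used here, so reads from antisense genes cannot be told apart from those of the members. Of the exon bases, 5.91% of Cxcl10 overlap Art3, 41.7% of Cxcl11 overlap Gm2673 and 18.3% of Cxcl16 overlap Zmynd15, each on the plus strand. Gm2673 had 0 counts everywhere, and Art3 and Zmynd15 had at most 16 each. What this overlap does to the counts of the members was not tested. Cxcl2 and Cxcl3 share 69 stretches of 100 bases, the read length before trimming, which is 3.05% of those in Cxcl2 and 1.88% of those in Cxcl3. Reads were trimmed by quality before mapping and can be shorter, and shared stretches of shorter length were not counted.

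Because Cxcl2 and Cxcl10 moved apart in the co-treatments, the promoters of the members are shown, from 250 bases before to 50 after the gene start, as given by RefSeq for GRCm38.p6 and read from 5′ to 3′ on the strand of the gene. They are those of Cxcl1 (chr5:90890995-90891294), Cxcl2 (chr5:90903649-90903948) and Cxcl3 (chr5:90785851-90786150) on the plus strand, and Cxcl9 (chr5:92328030-92328329) and Cxcl10 (chr5:92348840-92349139) on the minus strand. Of the 7 members 5 had an entry, and Cxcl11 and Cxcl16 did not. Capitals mark the letters GGGNNNTTCC (a κB motif), GAAANNGAAA (an interferon-stimulated response element, ISRE) and TATAAA, on either strand, with overlapping matches of the κB motif on both strands joined. TTCNNNGAA (a gamma-activated sequence, GAS) was searched too, and no match of one motif overlaps a match of another in these sequences.
Cxcl1: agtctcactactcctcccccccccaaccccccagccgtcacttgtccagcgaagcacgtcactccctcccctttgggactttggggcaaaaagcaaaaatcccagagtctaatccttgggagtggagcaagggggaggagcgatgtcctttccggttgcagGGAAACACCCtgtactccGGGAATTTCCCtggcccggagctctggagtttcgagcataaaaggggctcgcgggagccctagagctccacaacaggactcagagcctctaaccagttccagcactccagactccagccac
Cxcl2: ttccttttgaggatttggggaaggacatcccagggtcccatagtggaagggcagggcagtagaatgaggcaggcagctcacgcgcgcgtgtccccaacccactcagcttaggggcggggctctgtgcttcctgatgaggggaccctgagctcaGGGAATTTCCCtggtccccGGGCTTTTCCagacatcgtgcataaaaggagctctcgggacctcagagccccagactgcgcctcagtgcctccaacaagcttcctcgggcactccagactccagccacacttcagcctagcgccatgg
Cxcl3: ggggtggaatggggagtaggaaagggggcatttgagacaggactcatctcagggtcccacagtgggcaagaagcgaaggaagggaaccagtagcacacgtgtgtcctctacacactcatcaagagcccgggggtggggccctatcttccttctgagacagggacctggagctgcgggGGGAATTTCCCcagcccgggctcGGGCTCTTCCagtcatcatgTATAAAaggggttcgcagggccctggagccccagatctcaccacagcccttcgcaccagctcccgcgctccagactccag
Cxcl9: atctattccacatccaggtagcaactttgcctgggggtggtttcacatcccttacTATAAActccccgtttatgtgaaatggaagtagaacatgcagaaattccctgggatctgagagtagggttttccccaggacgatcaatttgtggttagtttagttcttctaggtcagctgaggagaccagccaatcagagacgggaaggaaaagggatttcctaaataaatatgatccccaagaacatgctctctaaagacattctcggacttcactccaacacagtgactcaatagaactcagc
Cxcl10: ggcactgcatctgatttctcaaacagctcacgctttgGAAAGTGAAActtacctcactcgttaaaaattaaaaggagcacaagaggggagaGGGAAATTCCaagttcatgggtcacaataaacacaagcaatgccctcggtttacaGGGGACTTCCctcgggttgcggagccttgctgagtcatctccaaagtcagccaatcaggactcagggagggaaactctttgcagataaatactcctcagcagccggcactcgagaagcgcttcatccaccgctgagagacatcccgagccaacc
The promoters of Cxcl1, Cxcl2, Cxcl3 and Cxcl10 each held 2 separate κB stretches, and that of Cxcl9 held 0. Cxcl10 was the member with an ISRE match, whose first base lies at -213 from the start. In Cxcl1, Cxcl2 and Cxcl3 the letters GGGAATTTCC recur, at -71, -97 and -73. TATAAA was found in Cxcl3 (-30) and Cxcl9 (-195), and the GAS letters in none of the 5. Of 32851 promoters of this length, 5.56% held the κB letters and 0.158% at least 2 stretches of them, 3.44% the ISRE letters, 8.3% the GAS letters and 13.6% TATAAA. A match describes the sequence and not the binding of a factor.

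Other genes of the family and its pathways were read as lists, each by its counts of DEGs and its median log2 fold change beside that of all genes tested (0.02 for LPS with the control, -0.00052 for AGE+LPS with LPS and -0.012 for FruArg+LPS with LPS). Of all genes tested, edgeR called 11.5% up and 11.1% down with LPS, and 0.292% up and 0.503% down with AGE+LPS (4.91% and 4.82% with the replicate block). With FruArg+LPS edgeR called 0% (2.87% up and 3.48% down with the block). DESeq2 called 551 of 12317 genes with AGE+LPS, 202 of 12071 with FruArg+LPS and 5 of 11915 between the co-treatments. At an unadjusted edgeR p under 0.05 stood 2194, 1543 and 668 of these genes in the same order, the background for such counts in the lists below. Some called genes could pass the filter only through the group where they are high, so their share in the counts of the lists is no support. They are Cxcr3, Ccl8, Ccl24, Zfp36l1, Bcl3 and Socs1 with LPS (Bcl3 and Socs1 named after their values were seen), and Ccl8, Mmp9 and Hnrnpd in the co-treatments. Of 8 other CXC ligands, Pf4 and Cxcl14 could be tested and neither was a DEG in these 3 comparisons. Pf4, which is known from platelets, was the most abundant per kb, at 82.1 and 81.3 CPM in the control and between 57.2 and 105 CPM in the other libraries. Of 10 CXC receptors 3 were tested with LPS and 2 fell. Cxcr4, the receptor for Cxcl12, fell from 49.5 and 66.4 CPM to 6.25 and 2.57 with LPS (-3.72, SE 0.39, edgeR adjusted p = 1.5e-04), and the co-treated libraries had 3.14 and 2.42 (AGE+LPS) and 4.58 and 0.57 CPM (FruArg+LPS). Cxcr3, the receptor of Cxcl9, Cxcl10 and Cxcl11, fell from 10 and 36 counts to 4 and 1 with LPS (edgeR adjusted p = 0.0059), near the floor, and is named after its values were seen. Cxcr2 had 3 and 14 counts in the control and at most 2 in every other library.

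Of 21 CC and other chemokines, which act mainly on monocytes and lymphocytes, 20 were matched and 11 tested with LPS. Of these 8 rose and 1 fell, with a median of 3.32, led among abundant genes by Ccl5 (7.13, edgeR adjusted p = 2.8e-06). The gene that fell was Ccl24, at 6 and 14 counts in the control and 0 in every other library, at least 4.88-fold lower and named after its values were seen. With AGE+LPS and with FruArg+LPS 0 of 10 were called by edgeR (5 and 4 at an unadjusted p under 0.05, 2 and 2 by DESeq2). With the replicate block 2 fell in each, Ccl12 (-1.71 and -2.14, edgeR adjusted p = 6.2e-23 and 1.3e-12) and Ccl8 (-2.68 with AGE+LPS and to the floor, at 2 and 3 counts, with FruArg+LPS, 4.3e-08 and 3.9e-04), and Ccl3 rose with FruArg+LPS (1.05, 1.1e-04). In the main fit their adjusted p lay between 0.068 and 0.27.

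Of 16 genes of NF-kB and its feedback, all were tested and 14 rose with LPS (against 11.5% of all genes), with a median of 2.21, led by the inhibitor Nfkbia (5.01, edgeR adjusted p = 4.0e-06). In the co-treatments 0 of the 16 were DEGs by edgeR with or without the replicate block (medians -0.18 and 0.11), with 3 (AGE+LPS) and 1 (FruArg+LPS) at an unadjusted p under 0.05 and 0 and 0 called by DESeq2. Of 13 tested genes of the TLR4 receptor and its adaptors 6 rose with LPS (against 11.5% of all genes), with a median of 0.74. Ticam2, an adaptor of TLR4 signalling, fell under the replicate block with AGE+LPS (-1.12, edgeR adjusted p = 8.4e-09) and with FruArg+LPS (-1.14, 9.2e-04), but not in the main fit (0.075 and 0.22). Of the 9 alternatives 5 called it with AGE+LPS, DESeq2 among them, and 3 with FruArg+LPS.

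Of 18 tested genes of interferon signalling 10 rose with LPS (against 11.5% of all genes), with a median of 1.66, among them Jak2 (3.39), Irf1 (3.32), Irf7 (3.17) and Usp18 (3.06). With AGE+LPS the median was -0.39 and 2 fell (against 0.503% of all genes), Irf7, a transcription factor of interferon genes (-1.42, edgeR adjusted p = 0.046, from 1.7e-24 to 0.053 over the alternatives), and Usp18, a negative regulator of interferon signalling (-1.54, 0.04). Under the replicate block 5 fell (against 4.82% of all genes), as by DESeq2, with Irf1 (-1.37, edgeR adjusted p = 1.2e-21), Stat2 (-1.19, 9.7e-18) and Irf5 (-1.11, 6.4e-18) in addition. With FruArg+LPS the median was -0.19, and 0 of 18 were called by edgeR (7 at an unadjusted p under 0.05, 1 by DESeq2), while Socs3 rose under the replicate block (1.32, 2.4e-07). Whether the interferon signalling genes differed between the co-treatments was tested in the comparison of both, where 0 of 18 were called (3 at an unadjusted p under 0.05, 0 by DESeq2), with a median of 0.35. Ifnb1, which encodes interferon beta, had 0 and 2 counts in the control, 8 and 24 with LPS, 0 and 3 with AGE+LPS, and 0 and 4 with FruArg+LPS, and was not tested.

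Of 7 factors that bind or degrade chemokine mRNA 2 rose with LPS, Zc3h12a, a ribonuclease (2.50), and Zfp36, a decay factor of AU-rich mRNAs (1.24, edgeR adjusted p = 0.007). The call of Zfp36 was lost with scaling by library size (0.82) and without Control replicate 2 (1.23). Zfp36l1 fell from 11 and 24 counts to the floor, at 1 and 2 counts (edgeR adjusted p = 0.0032), and is named after its values were seen. Under the replicate block Zfp36 fell with AGE+LPS (-1.60, edgeR adjusted p = 1.4e-11, 0.057 in the main fit) and Hnrnpd with FruArg+LPS (-1.74, 6.8e-04, and 0.42 in the main fit), where its counts were 4 and 53. Of 6 proteases known to cut CXC ligands, Mmp12 rose with AGE+LPS (3.89, edgeR adjusted p = 0.039), from 10.5 and 26 CPM with LPS to 205 and 340. It was at 136 and 203 CPM with FruArg+LPS and called there under the replicate block (3.30, edgeR adjusted p = 5.6e-21, 0.16 in the main fit) and in 4 of 9 alternatives in all. Mmp9 had 0 and 3 counts with LPS, 37 and 24 with AGE+LPS and 14 and 11 with FruArg+LPS, and was called up under the block in both co-treatments (edgeR adjusted p = 1.2e-09 and 0.015, 0.057 and 0.24 in the main fit), in 6 and 3 of 8 alternatives. With LPS, Adam17, which sheds Cxcl16, was called at 1.00 (edgeR adjusted p = 0.0054) but not with the replicate block, with library size scaling (0.58), with all 4 groups in one fit (0.96), or without Control replicate 1 (0.93) or LPS replicate 2 (0.89). Mmp8, named after its values were seen, fell with LPS under the replicate block (-1.22, edgeR adjusted p = 0.012) and was called in 4 of 9 alternatives, library size scaling among them, but not in the main fit (0.063).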

How the data were processed

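The authors deposited whole-number counts per Ensembl gene, without normalization. The single-end reads of 100 bases were trimmed by quality, mapped to GRCm38 with TopHat2 and counted with featureCounts. Versions of these tools and the strand setting are not given in the sources used here. The submitters' processing notes name edgeR, the paper's methods DESeq2, and labels and methods name different RNA extraction kits. Groups came from the sample titles, and all 8 columns were used. Library totals ran from 2707500 to 12069807 counts, and 3 counts were 0.249 to 1.11 CPM.

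Comparisons were fitted in edgeR 4.0.16 under R 4.3.3, each with the 4 libraries of its 2 groups (filterByExpr, TMM, two-sided quasi-likelihood F-test, Benjamini-Hochberg adjustment over all genes tested). Intervals are at 95% from the t distribution with the degrees of freedom of edgeR. Of the 46078 genes, 45229 were matched by identifier to GENCODE M21. Ccl19 was left out because its symbol was not matched to a single gene.

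Alternatives were DESeq2 1.42.0, RLE size factors, library size scaling, a looser filter (1 count or more over the libraries), a stricter filter (10 or more in each library), all 4 groups in one fit, the replicate block within a comparison or with all 4 groups, no minimum fold, and each library left out. The log ratio was also taken with pseudocounts of 0.5 and 5, with Cxcl16 among the interferon-induced members, with Cxcl2 and Cxcl10 alone, within lanes, and, chosen after seeing the data, from CPM per kb of exon. The replicate number marks a lane in the labels, and over 12873 genes the replicate 2 to replicate 1 difference of a group was correlated with that of each other group (r lowest at 0.291 for FruArg+LPS and Control, highest at 0.679 for AGE+LPS and LPS), so blocked values stand beside results they change. Chi-square per degree of freedom between replicates was 11.9 in the control, 41.3 with LPS, 25.6 with AGE+LPS and 24.2 with FruArg+LPS, so no replicates were merged.

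The genes named are the 7 members, and of each list up to 4 DEGs of LPS against the control with a mean of at least 5 CPM, the DEGs of a co-treatment with or without the block, and the most abundant gene per kb. To these come the 3 genes most like each member and protein-coding genes within 200 kb of a cluster, and examples are given in the text. Cell markers, genes that overlap a member, Cxcr2, Cxcl14 and Ifnb1 are named outside these rules. So are the genes marked as named after their values were seen. Members and lists were chosen with earlier results of these data known. Plots were made in Python 3.11.15 with matplotlib 3.10.9. A further result on a marker gene is not reported here.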

Additional observations from a re-analysis of the deposited data

Results flagged for a closer look

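Cxcl1 lay on opposite sides of LPS in the co-treatments. Both AGE+LPS libraries (0.571 and 0.455 CPM) were below both LPS libraries (1.62 and 2.39 CPM), and both FruArg+LPS libraries (3.44 and 4.37 CPM) were above them. The difference of FruArg+LPS from AGE+LPS was 2.87 on the log2 scale (95% interval 1.14 to 4.60) with an adjusted p of 0.84 by the edgeR quasi-likelihood test, from 0.044 to 0.84 over the alternatives. It lay between 2.69 and 3.04 with a library left out, and within the replicate block it was 2.86 with an adjusted p of 0.074. The AGE+LPS values rest on 4 and 3 counts, and 3 counts is the floor. Cxcl1 could pass the filter of this comparison only through the FruArg+LPS libraries, so its interval and p-values are no support.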

How the results depend on the processing

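Of the members' log2 fold changes in the 6 comparisons, 183 of the values under other settings kept their direction and their side of the DEG threshold, 25 became DEGs, 1 was no longer a DEG (Cxcl2 with AGE+LPS under RLE size factors) and 2 turned in sign. With a library left out these numbers were 76, 17, 1 and 3, and the lone library of a group was then assumed to vary like the other group. The reversals are all in FruArg+LPS against AGE+LPS. Cxcl10 (0.044) was -0.10 with library size scaling, -0.014 with the replicate block and all 4 groups, and -0.42 to 0.41 with a library left out, and Cxcl3 (-0.50) was -0.92 to 0.091. Beside the calls given with it, the replicate block changed no other call of a member. The number of DEGs with AGE+LPS against LPS (98) was 551 by DESeq2, 927 with at least 1 count, 376 with all groups in one fit, 1199 with the replicate block, 895 with that block and all groups, and 349 to 646 with a library left out. The members called (1) were then 3, 3, 3, 4 and 3, 0 with RLE size factors, and 3 with any library left out. With FruArg+LPS against LPS the 0 DEGs became 202, 503, 5, 766 and 853 in the same order, and 5 to 1549 with a library left out, with 3, 3, 1, 3 and 3 members called, and 1 to 4. FruArg+LPS against AGE+LPS (0 DEGs) gave 5 by DESeq2, 40 with at least 1 count, 107 and 151 with the blocks, and 10 to 233 with a library left out, with 1 member called under the block with all groups. Under the filter of at least 10 counts in every library 1 member was called in LPS (4), AGE+LPS (3) and FruArg+LPS (4) against the control, since fewer genes were tested. With a library left out 2 to 6 members were called with LPS, the block with all groups called 5 with AGE+LPS, and the 2098 DEGs of FruArg+LPS became 1448 to 3416, the highest without FruArg+LPS replicate 2. The log ratio of LPS less control (0.49) was 0.62 and 0.13 with pseudocounts of 0.5 and 5, 0.97 with Cxcl16, 0.93 for Cxcl2 and Cxcl10, and 0.38 and 0.61 in lanes 3 and 6. The LPS mean (-0.022) became 0.042 with a pseudocount of 0.5, 0.69 with Cxcl16 and 0.048 from CPM per kb (chosen after seeing the data). AGE+LPS less LPS (1.92) was 3.30 for Cxcl2 and Cxcl10. It was smaller with a pseudocount of 5 (means 1.43 with AGE+LPS and -0.15 with LPS), from CPM per kb (1.63 and 0.048) and with Cxcl16 (2.53 and 0.69). With a pseudocount of 0.5 it was larger (2.07 and 0.042). FruArg+LPS less LPS (2.61) was 2.98 and 1.81 with the pseudocounts, 2.02 from CPM per kb, 3.45 for Cxcl2 and Cxcl10, and 2.96 and 2.25 in the lanes. FruArg+LPS less AGE+LPS (0.69) was 0.15 for Cxcl2 and Cxcl10, 1.37 in lane 3, -0.00079 in lane 6, 0.23 with a pseudocount of 5, 0.43 from CPM per kb and 0.29 to 1.08 with a library left out. Where no construction of the setting shows it, the cause was not tested. Depth limits Cxcl1, Cxcl9, Cxcl11 and Cxcl16, which had at most 37 counts in any library.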
